A study of Mus musculus with 24 samples.

Results

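Nucleolus-associated domains (NADs) of 1 Mb or longer were examined for what became of each of them in a second cell type. They were chosen by length alone, on chromosomes 1 to 19, from the lists of NADs called in mouse embryonic stem cells (ESCs) and in neural progenitor cells (NPCs). This gave 201 of 1769 ESC NADs and 168 of 1447 NPC NADs. Length, position and score all come from the Nucleolar-DamID contrast that defined the NADs, so they are described below and carry no test.

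In Nucleolar-DamID, the bacterial Dam methyltransferase is fused to histone H2B and to a nucleolar localization sequence, and DNA that comes near the nucleolus is methylated at GATC sites. For each cell type, 2 samples with the H2B-Dam-NoLS fusion were set against 2 samples with H2B-Dam, which lacks the nucleolar sequence. All were E14 ESCs, or NPCs derived from them, with a heterozygous transgene at Rosa26 driven by a minimal hsp promoter, induced for 15 h with doxycycline at 100 ng/ml and Shield1 at 1 µM. NPCs came from 8 days of differentiation, with retinoic acid at 2 µM for the final 4. For Nucleolar-DamID they were then dissociated, plated again and induced. RNAseq was made from 3 dishes of untreated ESCs and 3 of NPCs.

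The nucleolus forms around the ribosomal RNA genes, and chromatin at its surface is mostly heterochromatin that is poor in genes and low in transcription. NADs overlap in part with the domains that contact the nuclear lamina. In neural differentiation, pluripotency genes are shut down while genes of neural precursors are switched on.

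Long NADs were a small part of each list by number and a large part by length. In ESCs they made up 11.4% of the NADs and held 332 Mb, which was 42.7% of the NAD bases on the autosomes and 13.5% of the autosomes. In NPCs they made up 11.6% of the NADs and held 363 Mb, 51.9% of the NAD bases and 14.7% of the autosomes. The order turned without chromosome 8 (326 Mb in ESCs and 285 Mb in NPCs), and ESCs had more long NAD sequence on 12 of 19 chromosomes. The median length was 1.40 Mb in ESCs (quartiles 1.20 and 1.80 Mb) and 1.5 Mb in NPCs (quartiles 1.30 and 2.4 Mb). NPCs had 58 NADs of at least 2 Mb and 8 of at least 5 Mb, with a longest of 12.5 Mb, whereas ESCs had 37 and 3, with a longest of 6.20 Mb. Without chromosome 8 the counts were 43 and 4 in NPCs and 37 and 3 in ESCs.

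The 1 Mb limit fell inside a group of NADs of near equal size, because the map has steps of 100 kb and borders lie at nearby GATC sites. In ESCs the shortest NADs taken in measured 1000005, 1000024 and 1000040 bp, and the longest left out measured 999996, 999990 and 999838 bp. In NPCs these lengths were 1000221, 1000315 and 1000563 bp and 999928, 999870 and 999762 bp. Including those named here, 17 ESC NADs and 8 NPC NADs lay between 0.95 and 1 Mb.

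The NAD score that the authors give each NAD was not high in long NADs. The median score was 0.0234 in long ESC NADs (quartiles 0.0203 and 0.0289) and 0.0260 in shorter ones (quartiles 0.0205 and 0.0402), and the highest was 0.0871 and 0.184, respectively. The median of long ESC NADs was above that of shorter ones on 3 of 19 chromosomes. In NPCs the medians were 0.0408 and 0.0417, with that of long NADs above on 8 of 19 chromosomes, and the highest scores were 0.133 and 0.233. The score is described as a log2 ratio of H2B-Dam-NoLS to H2B-Dam, but how the 2 replicates enter it is not given in the sources used here, so scores were compared within a list only.

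Every border of a long NAD, 402 of 402 in ESCs and 336 of 336 in NPCs, lay at a GATC site, the sequence that Dam methylates, as did all 3010 and 2404 borders of shorter NADs. The map is built from fragments between these sites. The borders of 4 of the longest NADs are printed to show this, as 30 bases of the + strand of GRCm38/mm10 around each border, with the GATC in capitals. They belong to the ESC NADs on chromosomes 12 and 2 and to the NPC NADs on chromosomes 13 and 8 that are described below.
chr12:61599970-61599999, ESC start: aaagaaaagtatgGATCtgaatatcaagtt
chr12:67499321-67499350, ESC end: tatttttgtctttGATCtttgcgtctatga
chr2:19799694-19799723, ESC start: tctggcctcaaaaGATCaacctgcctctgc
chr2:26000931-26000960, ESC end: tcttgaggacaaaGATCaaacttgccccca
chr13:74399541-74399570, NPC start: aaatcactcctgaGATCtggaaaagtctgg
chr13:86901081-86901110, NPC end: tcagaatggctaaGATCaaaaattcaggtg
chr8:57399440-57399469, NPC start: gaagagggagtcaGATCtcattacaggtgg
chr8:69400270-69400299, NPC end: atgcagctgggctGATCcgtgatcaaagaa

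Each long NAD was then sorted by its overlap with the NADs of the other cell type. It was taken as kept whole if 1 NAD of the other list held at least 90% of its bases, as broken up if it was not kept whole and met at least 2 NADs, as partly kept if it met exactly 1, and as lost if it met none. Of 201 long ESC NADs, 42 were kept whole in NPCs (20.9%, exact Clopper-Pearson 95% interval 15.5 to 27.2%). Another 75 were broken up (37.3%, 30.6 to 44.4%) and 74 were partly kept (36.8%, 30.1 to 43.9%). Only 10 were lost (4.98%, 2.41 to 8.96%). The intervals here and below cover counting error only, since the lists hold no values for single replicates.

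Seen from the other side, the fates of long NPC NADs in ESCs were counted in the same way. Of 168, 27 were kept whole (16.1%, 10.9 to 22.5%), 37 were partly kept (22.0%, 16.0 to 29.1%) and 2 were lost (1.19%, 0.144 to 4.23%). The other 102 corresponded to several separate ESC NADs (60.7%, 52.9 to 68.1%). Fates were computed from the same positions as the length, and long NPC NADs were also longer, so the difference between cell types was not tested. When only NADs of the other list at or above its median score were used, 51.2% of long ESC NADs and 42.3% of long NPC NADs were lost. This also shortened the other list, and removal of as many NADs irrespective of score was not tried.

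Broken up NADs were longer than the others. The median length of broken up ESC NADs was 1.60 Mb, against 1.30 Mb in those kept whole and in those partly kept, and 1.35 Mb in those lost. In NPCs it was 1.9 Mb, against 1.30, 1.30 and 1.65 Mb. A longer NAD has more room to meet several NADs, and this was not separated from other effects. Among ESC NADs of at least 2 Mb, 73.0% were broken up and 10.8% kept whole, and among NPC NADs of that length 82.8% and 6.90%.

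The number of pieces was mostly small in NPCs and reached higher values in the reverse direction. Long ESC NADs met 1 NPC NAD in 116 cases, 2 in 53, 3 in 19, 4 in 2 and 5 in 1 case. Long NPC NADs met 1 ESC NAD in 64 cases, 2 in 66, 3 in 20, 4 in 5 and 5 in 6 cases, and the remaining ones met 7, 7, 9, 11 and 12. Where a long NAD was interrupted, the gaps inside it were longer than 150 kb in all but 1 case, in a long ESC NAD. Long ESC NADs had 101 inner gaps with a median of 401 kb and a longest of 2.20 Mb, and long NPC NADs had 186 with a median of 400.4 kb and a longest of 1.9 Mb.

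In bases, 59.0% of long ESC NADs lay inside NPC NADs (196 of 332 Mb), whereas NPC NADs covered 28.4% of the autosomes. On 19 of 19 chromosomes the share was above the coverage of that chromosome. It was also above the share of shorter ESC NADs, 51.1%, on 15 of 19 chromosomes, with a mean difference of 9.79 ± 11.8 percentage points (SD over 19 chromosomes). Of the 136 Mb outside NPC NADs, 52.4 Mb lay in inner gaps and 83.7 Mb at the borders of long NADs or in lost ones.

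Long NPC NADs had 57.5% of their bases inside ESC NADs (209 of 363 Mb), against a coverage of the autosomes of 31.6%. The share was above the coverage of the chromosome on 19 of 19 chromosomes, but above that of shorter NPC NADs, 63.8%, on 10 of 19 (mean difference −1.59 ± 11.7 percentage points). Outside ESC NADs lay 154 Mb, of which 91.7 Mb were inner gaps. The 2 sets of long NADs shared 129 Mb, which was 38.9% of the bases of long ESC NADs and 35.6% of those of long NPC NADs.

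Single NADs spread over the whole range. The share of a long ESC NAD inside NPC NADs had a median of 60.0% and quartiles of 33.4 and 87.5%, with 35 NADs entirely inside and 18 with less than 10%. For long NPC NADs the median was 63.6% and the quartiles 43.7 and 81.3%, with 15 entirely inside and 9 below 10%. The share was nearly unrelated to length in ESCs (Spearman's rho 0.0142, n = 201 NADs) and weakly negative in NPCs (rho −0.162, n = 168). For score, rho was 0.0789 in ESCs and −0.162 in NPCs, and the latter turned to 0.144 without chromosome 8. These NADs share libraries and chromosomes and are not independent points.

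Long NADs were also often extended. A long NAD was taken as extended if an overlapping NAD of the other list reached at least 100 kb beyond a border. In NPCs 99 long ESC NADs were extended (49.3%, 42.1 to 56.4%), 36 on both sides, 31 on the left only and 32 on the right only. This held for 37 of the 42 kept whole, so that most of them were parts of larger NPC domains. For 69 of the 201 (34.3%, 27.8 to 41.3%) the extended NPC NAD also joined at least 1 other ESC NAD.

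In ESCs 88 long NPC NADs were extended (52.4%, 44.5 to 60.1%), 18 on both sides, and 39 were joined with another NPC NAD (23.2%, 17.1 to 30.3%). The reach of the extensions was larger in NPCs. Over 135 extended borders of ESC NADs the median was 0.699 Mb, 52 reached at least 1 Mb and the longest 9.20 Mb. Over 106 extended borders of NPC NADs the median was 0.4996 Mb, 24 reached at least 1 Mb and the longest 4.3 Mb. Without chromosome 8, where the NPC list holds very long NADs, 45 borders of ESC NADs still had an extension of at least 1 Mb.

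Some borders were shared to the base pair, and the number expected by chance was not computed. Of 402 borders of long ESC NADs, 30 (7.46%) were also a border of an NPC NAD, 126 (31.3%) lay within 105 kb of one, about a step of the map, and the median distance was 299.8 kb. For the 336 borders of long NPC NADs these values were 35 (10.4%), 121 (36.0%) and 200.8 kb. In each cell type 3 long NADs had both borders in common with the other list.

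Chromosome 8 differed from the other chromosomes in NPCs. NPC NADs covered 77.6% of it and at most 32.4% of any other autosome, whereas ESC NADs covered 19.5% of it. It held 22 of the 168 long NPC NADs, with 78.3 Mb or 60.5% of the chromosome, and 4 of the 201 long ESC NADs. The scores of the long NPC NADs there were high (median 0.0819, lowest 0.0597), and the 2 highest scores of all long NPC NADs, 0.133 at chr8:126800417-129300174 and 0.130 at chr8:72699920-74000034, were on it. Only 28.5% of their bases lay inside ESC NADs. Of the 22, 15 were broken up in ESCs, 5 partly kept, 1 kept whole and 1 lost. The copy number of chromosome 8 in these cells was not examined here.

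Without chromosome 8, 65.5% of the bases of the remaining 146 long NPC NADs lay inside ESC NADs, and 26 were kept whole, 32 partly kept, 87 broken up and 1 lost. Long ESC NADs without chromosome 8 ranged from 40.0% of bases inside NPC NADs on chromosome 19 to 81.7% on chromosome 6.

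The longest ESC NAD, chr2:19799709-26000945 (6.20 Mb), also had the highest score of the long ESC NADs, 0.0871. In NPCs it was broken into 5 NADs of 800, 601, 800, 199 and 99.4 kb, which covered 40.3% of it. It was rich in genes, with 91 of the RNAseq tables, and had a GC content of 42.3%. The second longest, chr12:61599985-67499335 (5.90 Mb), had 12 genes and a score of 0.0227, near the median of long ESC NADs (0.0234). In NPCs 3 NADs covered 67.8% of it, and its GC content was 37.3%.

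Other very long ESC domains varied as much. The NAD chr11:24799589-30200596 (5.40 Mb) stayed 90.7% covered, in 2 NPC NADs that reached 1.10 Mb past its right border. By contrast, 2 NPC NADs covered only 8.87% of chr1:85800335-90300086 (4.50 Mb), which had a score of 0.0802 and, at 45.9%, the highest GC content of all long ESC NADs. This domain holds 59 genes, among them 9 of the Ugt1a cluster, which encodes glucuronosyltransferases that conjugate bilirubin and drugs. The domain chr17:52200012-55900808 (3.70 Mb) was left with 43.2% in 3 pieces. The ESC NADs with 4 pieces were chr2:77899753-80700547 (42.9% covered) and chr13:19499565-21600325 (28.4%).

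The 10 lost ESC NADs had scores from 0.0117 to 0.0518. The longest of them, chr4:84299545-86900861 (2.60 Mb), had the highest of these scores and holds 11 genes, among them Bnc2, Cntln and Plin2. The long ESC NAD with the lowest score, 0.0117 at chr14:57399736-58800068, was lost too. The others lay on chromosomes 2, 3, 9, 10, 14, 15 and 18. Among NADs that met any NPC NAD, the smallest shares were 0.0616% for chr16:26100348-27500398, 7.52% for chr10:72300218-73599597 and 7.67% for chr10:122998020-124300206. The first of these touched an NPC NAD at a border only.

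The largest extensions in NPCs were those of chr8:72800145-74499257, by 9.20 Mb on the right, and of 2 neighbours on chromosome 13. On that chromosome, chr13:76500586-78200401 lay in an NPC NAD that reached 2.1 Mb further left and 8.70 Mb further right, and chr13:82400662-84799332 lay in the same one, with 8.00 and 2.1 Mb. This NPC NAD, chr13:74399556-86901095, was the longest of all at 12.5 Mb. It met 12 ESC NADs of 99.3 kb to 2.4 Mb, the first of which reached 0.199 Mb past its left border. Together their parts inside this NPC NAD made up 64.8% of it, so that a row of separate ESC domains was a single one in NPCs. It holds 31 genes, among them Mef2c, a transcription factor of muscle and neurons, Rasa1 and Nr2f1.

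The next longest NPC NADs were chr8:57399455-69400284 (12.0 Mb, 11 ESC pieces, 45.8% covered), chr8:74099802-83699890 (9.60 Mb, 7 pieces, 39.6%) and chr8:95398249-103799648 (8.40 Mb, 9 pieces, 21.4%). Outside chromosome 8, chr10:31499090-38799743 (7.30 Mb) was 75.3% covered by 4 ESC NADs. The lost NPC NADs were chr8:88999553-90800344 (1.80 Mb), with the genes Sall1 and Tox3, and chr2:136899779-138400265 (1.5 Mb). The smallest shares above these were 4.03% for chr8:106299897-108800017, 4.72% for chr8:8797661-10900515 and 5.54% for chr2:140399130-142199816.

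Some long NPC NADs were parts of larger ESC domains. The NAD chr12:65899910-67099885 lay in the 5.90 Mb ESC NAD, which reached 4.3 Mb further left. The NAD chr11:24800056-27000473 lay in the 5.40 Mb ESC NAD, which reached 3.20 Mb further right. By contrast, chr4:14100662-15600246 was broken up in ESCs, with 73.3% of it covered by 2 NADs. These reached 1.60 Mb past its left border and 3.00 Mb past its right border. The long NPC NADs with the lowest scores, 0.0232 at chr18:22700361-24300594 and 0.0273 at chr16:57099764-58099984, were among the weak ones of their list, as was 0.0152 at chr19:21799612-22899436 in ESCs.

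Sequence content was read from the genome and was not used to choose the NADs. Long NADs were poor in G and C. The GC content was 39.3% in long ESC NADs and 40.1% in shorter ones, and lower in the long ones on 18 of 19 chromosomes. In NPCs it was 38.9% and 39.9%, lower in the long ones on 19 of 19. Outside the NADs of both cell types it was 43.6%, above both sets of long NADs on every chromosome. GATC sites, which limit where Dam can act, were about equally dense, at 2.51 per kb in long ESC NADs, 2.52 in long NPC NADs and 2.49 outside both.

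The parts of long ESC NADs that were kept had a lower GC content than those that were not. It was 38.7% inside NPC NADs and 40.2% outside, and lower inside on 17 of 19 chromosomes (mean difference −1.18 ± 0.812 percentage points, SD over 19 chromosomes). Per NAD, the GC content and the share inside NPC NADs had a rho of −0.368 (n = 201), and −0.374 without chromosome 8. GC content also went with the score in these NADs (rho 0.480). Long NPC NADs did not have the same split. Their GC content was 38.5% inside ESC NADs and 39.4% outside, but lower inside on only 9 of 19 chromosomes, and without chromosome 8 the values were 38.45 and 38.54%.

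Repeats masked in the reference took up 38.1% of the parts of long ESC NADs inside NPC NADs and 35.0% of the parts outside, and were higher inside on 16 of 19 chromosomes (mean difference 1.51 ± 5.75 percentage points, SD over 19 chromosomes). Chromosome 8, with only 0.0998 Mb of the parts outside, had the lowest difference, and without it the mean was 2.70 ± 2.59 (SD over 18 chromosomes). In long NPC NADs the share was 38.42% inside ESC NADs and 38.35% outside, but lower inside on 15 of 19 chromosomes, and without chromosome 8 it was 38.5 and 41.0%. Masked repeats made up 38.4% of long NPC NADs and 31.2% of the genome outside both sets of NADs.

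Long NADs were also poor in genes. Of 21454 gene symbols with a single position, 20331 were on the autosomes, or 8.26 per Mb. Long ESC NADs overlapped 1761 of them (5.30 per Mb), against 8.76 per Mb in shorter ESC NADs, and the density was lower in the long ones on 17 of 19 chromosomes. Long NPC NADs overlapped 1410 (3.88 per Mb), against 8.93 per Mb in shorter ones, lower on 18 of 19. Counted by transcription start, which assigns each gene once, the densities were 5.05 and 7.33 per Mb in long and shorter ESC NADs, 3.74 and 7.43 in long and shorter NPC NADs, and 9.89 outside the NADs of both cell types.

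The parts of long ESC NADs inside NPC NADs had 4.87 genes per Mb and those outside had 6.99, with 146 genes that reached into both. The density was lower inside on 12 of 19 chromosomes (mean difference −1.86 ± 4.90 genes per Mb, SD over 19 chromosomes). In long NPC NADs there were 4.20 genes per Mb inside ESC NADs and 4.46 outside, with the higher value inside on 10 of 19 chromosomes, and without chromosome 8 there were 4.14 and 3.68. By fate, ESC NADs kept whole had 3.85 genes per Mb, those partly kept 5.91, those broken up 5.64 and those lost 3.72. The 10 lost NADs were thus about as poor in genes as those kept whole. For NPC NADs kept whole, partly kept, broken up and lost, there were 4.95, 4.55, 3.61 and 1.51 genes in each Mb. A typical long NAD held few genes, with a median of 4 in ESCs and 5 in NPCs, and 14 ESC and 9 NPC NADs held none.

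Clustered gene families were then counted in the long NADs. Olfactory receptor genes, with symbols starting with Olfr, made up 225 genes in 12 long ESC NADs, 20.0% of the 1126 on autosomes, but only 41 genes in 7 long NPC NADs (3.64%). Of all genes, 8.66% were in long ESC NADs and 6.94% in long NPC NADs. NADs shorter than 1 Mb held another 270 Olfr genes in ESCs and 221 in NPCs (24.0 and 19.6%, against 19.2 and 14.8% of all genes). The largest group was 55 Olfr genes in chr9:38699937-40299077, which was 12.5% inside NPC NADs, and the next 39 in chr7:107900013-109099649, with 8.33%. Since these genes lie in a few clusters, each family stands for a few NADs and not for as many separate events.

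Zinc finger genes with symbols starting with Zfp, many of which encode transcriptional repressors, were counted next. They numbered 69 of 387 in long ESC NADs (17.8%, against 8.66% of all genes) and 40 in long NPC NADs (10.3%, against 6.94%). Of the 40, 21 were in 1 NAD, and enrichment was not tested. The cluster of 18 in chr17:21399853-22900002 was kept whole in NPCs, within chr17:20899995-23499744, which held 21. Symbols starting with Ugt were in long ESC NADs for 18 of 22 genes and in long NPC NADs for 11. The NPC NAD chr5:83600126-87599903 (4.00 Mb), which was broken up in ESCs, held 10 Ugt2 genes, and the ESC NADs chr5:85999877-87100063 and chr5:87399536-88400443 held 4 and 3. Of 16 Gabr genes, which encode subunits of GABA receptors, 6 were in long ESC NADs, 4 of them in chr11:41199782-42700135, and 0 in long NPC NADs. Shorter NADs held 7 Gabr genes in ESCs and 4 in NPCs.

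Of 42 beta-defensin genes with symbols starting with Defb, 12 lay in the NPC NAD chr8:17099947-19300029 and 0 in long ESC NADs. NADs shorter than 1 Mb held 4 Defb genes in ESCs and 10 in NPCs. Vomeronasal receptor genes starting with Vmn1r numbered 15 of 203 in long NPC NADs (7.39%, against 6.94% of all genes) and 0 in long ESC NADs, while NADs shorter than 1 Mb held 56 of them in ESCs and 32 in NPCs. Those starting with Vmn2r numbered 16 of 120 in long NPC NADs and 19 in long ESC NADs. Of 102 symbols starting with Cyp, for cytochrome P450, 13 were in long ESC NADs and 15 in long NPC NADs. These were 12.7 and 14.7%, against 8.66 and 6.94% of all genes. They included 8 Cyp2j genes in the ESC NAD chr4:95500234-96900293 and 14 Cyp2c genes in the NPC NAD chr19:38899458-40199471. Of the 13, 7 reached into NPC NADs, and of the 15, 8 reached into ESC NADs. Of 39 Hox genes, which pattern the body axis, 0 were in long NADs of either cell type, but shorter NADs held 9 in each. Of 114 symbols starting with Krt, 2 were in long ESC NADs and 0 in long NPC NADs, and shorter NADs held 17 and 0.

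RNAseq had not been used to define the NADs. One library stood apart, as ESC replicate 3 had a Pearson's r of 0.960 and 0.963 across genes with ESC replicates 1 and 2, which had 0.998 between them, and NPC replicates had 0.996 to 0.999. Its ribosomal protein genes (symbols starting with Rpl or Rps) summed to 39865 RPKM, against 18886 and 19836 RPKM in the other ESC samples, and its mitochondrial genes (starting with mt-) to 8949 RPKM, against 16103 and 15174 RPKM. Counts of genes are therefore also given without it.

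The markers of ESCs were lower in NPCs for 8 of 8 genes, with sums of 373, 378 and 418 RPKM in ESCs and 9.28, 9.36 and 8.83 RPKM in NPCs, and Pou5f1 was the most abundant in ESCs. Of 8 neural progenitor markers 5 were tested, and Nes, Sox3 and Hes5 rose. Pax6, a defining one, had 0.0134, 0.0167 and 0.00457 RPKM in ESCs and reached only 1.55, 1.42 and 1.67 RPKM in NPCs. It did not pass the filter, nor did Sox1 and Fabp7, which were also higher in NPCs by RPKM. The sums of this list were 41.3, 42.8 and 50.1 RPKM in ESCs and 88.4, 94.6 and 98.6 RPKM in NPCs, with Vim as the most abundant gene.

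NPCs also had markers of other cells. Of the endoderm list Gata4 and Gata6 rose, the list summed to 0.103, 0.123 and 0.0873 RPKM in ESCs and 15.4, 16.8 and 16.3 RPKM in NPCs, and its most abundant gene was Gata6, whereas Afp was at most 0.0329 RPKM. Of the neuron list, Neurog2 rose and Tubb3, the most abundant, and Stmn2 fell. Its other members, Dcx, Map2, Neurod1 and Elavl3, were higher in all NPC samples by RPKM but did not pass the filter. The neuron sums were 11.5, 12.6 and 14.9 RPKM in ESCs and 10.9, 9.53 and 11.4 RPKM in NPCs. Of 6 mesoderm markers only Acta2 was tested, and it rose. By RPKM, T and Eomes were lower in NPCs and Tbx6 was higher, but none of these passed the filter. The mesoderm sums were 2.15, 2.21 and 1.79 RPKM in ESCs and 3.87, 4.32 and 4.84 RPKM in NPCs. Of 4 neural crest markers 2 were tested, of which Snai2 rose and Foxd3 fell. The neural crest sums were 8.46, 8.92 and 7.65 RPKM in ESCs and 5.34, 4.80 and 4.95 RPKM in NPCs. The part of these cells in the results was not tested, and in bulk RNA fewer cells of a type and less RNA per cell cannot be told apart. Few markers were in long NADs at all, namely Vim in both cell types, Neurod1 and Dab2 in ESCs, and Map2 and Sox17 in NPCs.

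Long NADs held few active genes in either cell type. A level of at least 1 RPKM was reached by 20.5 ± 1.80% of the genes in long ESC NADs in ESCs and by 23.6 ± 0.229% in NPCs (SD, n = 3). In long NPC NADs these shares were 24.7 ± 1.46% and 27.9 ± 0.148%, and outside the NADs of both cell types 32.3 ± 0.984% and 36.5 ± 0.0797%. The share was thus lower in long NADs than outside in every sample of both cell types. Shorter NADs lay between, with 26.6% in ESCs and 31.4% in NPCs for ESC NADs, and 28.3 and 33.7% for NPC NADs. The SD covers samples and not the spread over genes, and the difference between classes was not tested. In each of these classes the share was higher in all NPC samples than in all ESC samples, and ESC replicate 3 was the lowest. In 94 long ESC NADs and 64 long NPC NADs no gene had a mean of 1 RPKM.

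Most tested genes differed between the cell types. With limma on log2(RPKM + 1), 4845 of 7150 genes with a mean of at least 1 RPKM differed at an adjusted p under 0.05 (67.8%), 2380 of them higher in NPCs (33.3%) and 2465 lower (34.5%). Of 1761 genes in long ESC NADs 408 passed the filter, and 268 of these differed (65.7%), 146 higher and 122 lower in NPCs, with a median log2 difference of 0.05 against −0.04 over all tested genes. Of 1410 genes in long NPC NADs 398 passed, and 269 differed (67.6%), 129 higher and 140 lower (median −0.04). Both shares were near that of all tested genes. Without ESC replicate 3 the counts were 359 of 420 genes in long ESC NADs (186 higher, 173 lower) and 340 of 398 in long NPC NADs (163 and 177), against 6334 of 7275 genes in all (87.1%).

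Genes in the parts of long ESC NADs that were kept and in those that were left were close to this background. Inside NPC NADs 230 of 955 genes were tested and 147 differed (63.9%), 88 higher and 59 lower (median 0.13). Outside NPC NADs 198 of 952 were tested and 134 differed (67.7%), 67 higher and 67 lower (median −0.05). The balance of higher and lower genes depended on how the samples were scaled. With quantile normalization it was 75 higher and 78 lower inside NPC NADs, 55 and 85 outside, and 123 and 153 in long ESC NADs as a whole, whose median was then −0.08. With centring on the median it was 78 and 69, 60 and 78, and 129 and 140. Centring moves all genes alike, so these shifts are no result about long NADs. Outside the NADs of both cell types it changed 1567 higher and 1762 lower genes to 1419 and 1957.

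The counts also depended on the samples. Without NPC replicate 2 the lower genes inside NPC NADs numbered 36, and without NPC replicate 3 they numbered 35. Without ESC replicate 3 there were 113 higher and 86 lower genes inside NPC NADs, and 84 and 97 outside. Whether genes inside and outside differ from each other was not tested.

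In the parts of long NPC NADs outside ESC NADs, 188 of 687 genes were tested and 127 differed (67.6%), 57 higher and 70 lower in NPCs (median −0.11). This balance rested on chromosome 8. Without that chromosome, 27 of 54 tested genes were higher and 9 were lower (median 0.38), and in all long NPC NADs 96 were higher and 65 lower (median 0.13). The 426 tested genes of chromosome 8 had the lowest median log2 difference of the 19 chromosomes (−0.21, with 119 higher and 187 lower), and its part in the DamID result was not tested. Without both chromosome 8 and ESC replicate 3, a choice made after seeing the data, 32 were higher and 19 lower in the parts outside ESC NADs.

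The genes with the largest rise in parts of long ESC NADs that were not NADs in NPCs were Twist1, Adm, Ecel1, Nsmf, F2r and Ackr3. Twist1, a transcription factor of mesenchyme and neural crest, had 0.218, 0.234 and 0.135 RPKM in ESC replicates 1, 2 and 3 and 21.7, 27.2 and 26.0 RPKM in the NPC replicates (log2 difference 4.44 ± 0.10 SE, limma adjusted p = 2.53e-07). It lay in chr12:32700531-35499688, a NAD of 2.80 Mb of which 21.4% was left in 2 pieces. Differences are of log2(RPKM + 1), which understates the change of genes with low levels such as this one.

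Adm encodes the vasodilator peptide adrenomedullin. It had 0.0544, 0.0687 and 0 RPKM in ESCs and 13.5, 12.7 and 15.8 RPKM in NPCs (3.84 ± 0.10, adjusted p = 3.03e-07). Ecel1, an endopeptidase-like protein of neurons, had 0.0166, 0.0267 and 0.00733 RPKM in ESCs and 8.53, 9.71 and 10.6 RPKM in NPCs. Ackr3, a scavenger receptor for the chemokine CXCL12, had 1.44, 1.65 and 1.69 RPKM and 15.9, 15.3 and 14.6 RPKM. Both belong to the gene-rich domain chr1:85800335-90300086, in which 14 of 16 tested genes differed, 6 higher and 8 lower in NPCs, while 67.8% of all tested genes differed. In every one of these genes all NPC samples were above all ESC samples. Since they were chosen as the largest rises, this is no separate evidence.

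The longest ESC NAD on chromosome 2 held a gene of each direction. Nsmf rose from 0.124, 0.0904 and 0.111 RPKM to 7.13, 8.13 and 7.69 RPKM (log2 difference 2.96 ± 0.07). Tubb4b, a beta-tubulin found in most cells, had 163, 178 and 177 RPKM in ESCs and 50.1, 50.6 and 51.6 RPKM in NPCs (−1.75 ± 0.11, adjusted p = 2.13e-05), so that its level remained the higher of the 2 genes. Of 32 tested genes in this NAD, 26 differed, 17 higher and 9 lower, against 67.8% of all tested genes, 33.3% higher and 34.5% lower. F2r, the thrombin receptor, had 1.61, 1.53 and 1.21 RPKM in ESCs and 16.5, 15.6 and 16.1 RPKM in NPCs, and lay in chr13:95600562-96899516, which was 30.7% covered by 1 NPC NAD.

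The largest falls in parts that were not NADs in NPCs were those of Ckmt1, Gm21028, Psat1, Gm10139, Gm14409 and Tubb4b. Ckmt1, the mitochondrial creatine kinase, had 4.86, 5.26 and 7.02 RPKM in ESCs and 0.154, 0.0792 and 0.129 RPKM in NPCs (−2.57 ± 0.12, adjusted p = 5.0e-06). Psat1, an enzyme of serine synthesis, had 13.98, 13.8 and 14.1 RPKM in ESCs and 2.17, 2.34 and 2.59 RPKM in NPCs (−2.15 ± 0.08, adjusted p = 1.54e-06). The predicted genes had more spread, with 5.30, 9.48 and 11.7 RPKM for Gm21028 in ESCs and 1.09, 0.601 and 0.761 RPKM in NPCs. Gm10139 was listed at 0 in all NPC samples. Both directions are shown because the largest rises and the largest falls were named by rule.

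In parts of long ESC NADs that were NADs in NPCs as well, the largest rises were those of Nr2f1, Crb2, Cebpd, Vcan, Adamts10 and Klhl9. Nr2f1, an orphan nuclear receptor that patterns the developing cortex, had 0.0136, 0.0137 and 0.0181 RPKM in ESCs and 12.3, 13.5 and 13.9 RPKM in NPCs (3.81 ± 0.07, adjusted p = 1.86e-07). It lies at chr13:78188973-78199757, at the right border of the ESC NAD chr13:76500586-78200401 and inside the 12.5 Mb NPC NAD. Its locus was thus in the longest NAD of the cells in which its RNA was high.

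Crb2, an apical polarity protein, had 0.117, 0.117 and 0.0540 RPKM in ESCs and 7.02, 7.87 and 7.97 RPKM in NPCs (2.97 ± 0.07, adjusted p = 2.77e-07), in chr2:37000736-38300122, which was kept whole. Vcan, the matrix proteoglycan versican, had 0.726, 0.673 and 0.232 RPKM and 8.88, 8.38 and 8.06 RPKM, and also lay in a NAD kept whole, chr13:89599748-91100141. Cebpd, a transcription factor of inflammation and fat cell differentiation, had 0.682, 0.459 and 0.538 RPKM and 7.78, 11.8 and 11.9 RPKM. The ESC and NPC samples did not overlap for any of these genes, which were also chosen as the largest rises. Adamts10 (log2 difference 2.49 ± 0.06) and Klhl9 (2.13 ± 0.12) completed the group.

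The largest falls in the same parts were those of Rpl10l, Zfp990, Gldc, Terf1, Zfp229 and Orc1. Rpl10l had 93.7, 91.4 and 158 RPKM in ESCs and 0.0649, 0 and 0 RPKM in NPCs (−6.77 ± 0.22, adjusted p = 7.8e-07), and lay in the 5.90 Mb ESC NAD on chromosome 12. It is a retrocopy of Rpl10, and like the zinc finger genes it may share reads with near-identical copies. This was not tested, and its level is uncertain. Gldc, of the glycine cleavage system, which also reached into a part outside NPC NADs, had 3.88, 3.98 and 2.55 RPKM and 0.425, 0.412 and 0.435 RPKM. Terf1, a telomere binding protein, had 4.98, 4.50 and 5.54 RPKM and 1.09, 1.17 and 1.10 RPKM (−1.50 ± 0.08, adjusted p = 1.02e-05). Orc1, of the origin recognition complex, fell by 1.20 on the log2 scale.

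In parts of long NPC NADs that were not NADs in ESCs, the largest rises were those of Peg10, Ndn, Marcks, Pou3f2, Peg12 and Spaca6. Peg10, Ndn and Peg12 are imprinted genes expressed from the paternal allele. Peg10 had 3.63, 3.30 and 1.39 RPKM in ESCs and 261, 261 and 260.2 RPKM in NPCs (6.17 ± 0.26, adjusted p = 2.41e-06). Ndn had 0.907, 1.15 and 1.22 RPKM and 31.2, 30.05 and 29.6 RPKM, and Peg12 had 0.467, 0.382 and 0.394 RPKM and 11.4, 11.4 and 11.0 RPKM. The last 2 genes share the NPC NAD chr7:61200075-63099857, of which 26.3% was covered by 3 ESC NADs.

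Marcks and Pou3f2 lay in parts that were NADs in NPCs but not in ESCs. Marcks, a substrate of protein kinase C at the plasma membrane, had 4.89, 5.21 and 6.42 RPKM in ESCs and 81.4, 78.9 and 75.5 RPKM in NPCs (3.62 ± 0.12, adjusted p = 8.59e-07), and lay in the 7.30 Mb NAD on chromosome 10. Pou3f2, a transcription factor of neural precursors, had 0.0841, 0.0743 and 0.0233 RPKM and 7.74, 8.12 and 9.87 RPKM (3.17 ± 0.10, adjusted p = 6.42e-07), in chr4:22299956-24600660. Spaca6 rose by 3.05 ± 0.10 on the log2 scale.

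The largest falls in these parts, those of Cdh1, Apela, Sall1, Eif4ebp1, Nqo1 and Asna1, were all on chromosome 8. Cdh1, the epithelial cadherin, had 13.3, 13.9 and 7.93 RPKM in ESCs and 0.477, 0.423 and 0.428 RPKM in NPCs (−3.11 ± 0.20, adjusted p = 2.12e-05). Nqo1, a quinone reductase, which reached into a part that was NAD in ESCs, had 7.00, 7.04 and 7.52 RPKM and 0.622, 0.644 and 0.533 RPKM (−2.36 ± 0.07, adjusted p = 5.01e-07). Both lay in chr8:106299897-108800017, of which 4.03% was NAD in ESCs, and of its 12 tested genes 9 were lower and 2 higher in NPCs, against 34.5% lower among all tested genes and 187 of 426 lower on chromosome 8.

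Sall1, a zinc finger transcription factor, had 16.8, 17.3 and 8.35 RPKM in ESCs and 1.39, 1.51 and 1.76 RPKM in NPCs (−2.51 ± 0.27, adjusted p = 0.000237), in the long NPC NAD on chromosome 8 that met no ESC NAD. Apela, a peptide ligand of the apelin receptor, had 5.82, 5.32 and 8.20 RPKM and 0.279, 0.276 and 0.316 RPKM, in the 12.0 Mb NAD, where 11 of 13 tested genes were lower and 1 higher, to be read against the same 34.5% and 187 of 426. For Cdh1 and Sall1, ESC replicate 3 was the lowest of the ESC samples, and all ESC samples were above all NPC samples. Eif4ebp1 had 20.7, 22.4 and 34.7 RPKM and 3.55, 4.01 and 4.302 RPKM, and Asna1 fell by 2.03 on the log2 scale.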

How the data were processed

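The authors aligned DamID reads to mm10 with Bowtie2 2.3.4.3 and normalized H2B-Dam-NoLS to H2B-Dam at a resolution of 100 kb. They called peaks with cutoffs on the false discovery rate and on a minimum quantile. Peaks common to both replicates were deposited as NADs, with start and end positions and a score for each NAD. The lists were used as deposited, and NADs were not called again without chromosome 8. For RNAseq the authors deposited RPKM per gene and sample. Totals of reads were not used here, and steps between low RPKM values gave depths of 0.801 to 0.991 relative to ESC replicate 1.

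From these, overlaps were computed in base pairs with Python 3.11.15, numpy 2.4.6, pandas 2.3.3 and scipy 1.17.1. GC content, GATC sites and masked bases were read from GRCm38, and gene positions from GENCODE M21. Genes were counted by any overlap, and as outside NADs if they overlapped none. Expression was compared with limma 3.58.1 in R 4.3.3 (lmFit, eBayes with trend, two-sided, Benjamini-Hochberg) on log2(RPKM + 1) for 7150 of 21756 symbols with a mean of at least 1 RPKM, and was tested on simulated data. Another 153 symbols on more than 1 line were left out. Samples are separate culture dishes of 1 line, so p-values measure the spread between dishes.

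Named NADs were the 5 longest of each list, those nearest the 1 Mb limit, and those with the highest and lowest scores, most pieces, smallest covered share, longest lost or largest extension. Clusters of a gene family, NADs that hold a named gene, and genes named only as content of a NAD were added after their values were seen. Named genes were the 6 largest rises and falls among genes with an adjusted p under 0.05 in each of 3 classes. Members and lists were chosen with earlier results of these data known. Alternatives covered the definition of fate, the length limit, chromosome 8, pseudocount, filter, scaling and samples.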

Additional observations from a re-analysis of the deposited data

Results flagged for a closer look

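The X chromosome was outside the comparisons, which used chromosomes 1 to 19. It held 5 NPC NADs of 1 Mb or longer and 0 such ESC NADs, the longest ESC NAD on it being 0.801 Mb. The longest of the 5, chrX:117498993-122999790, measured 5.50 Mb and had 0% of its bases in ESC NADs. The others measured 1.20 to 1.60 Mb and had 19.8 to 46.0% of their bases in ESC NADs. The difference between the cell types was not tested.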

How the results depend on the processing

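Of the values under alternatives for counts and shares, 237 stayed within their interval or within 1.5 times and 49 did not. The 36 named genes kept their direction and stayed below an adjusted p of 0.05 in 466 of 466 refits in which they were tested. They were chosen as the largest differences in the same samples, so this is no separate evidence. Without ESC replicate 1, Gm10139 and Gm14409 fell below the filter of 1 RPKM and were not tested. The fates depended on their definition. With 75% of bases in 1 NAD for kept whole, 31.3% of ESC NADs were kept whole and 26.9% partly kept, and 25 and 13.7% of NPC NADs. With 100%, 8.93% of NPC NADs were kept whole and 29.2% partly kept. With the other list at or above its median score, ESC NADs were 14.9% kept whole, 27.4% partly kept, 6.47% broken up and 51.2% lost, with 25.6% of bases inside, and NPC NADs 8.93, 33.3, 15.5 and 42.3%, with 23.6% of bases inside. At 2 Mb or longer, 10.8, 13.5 and 73.0% of ESC NADs were kept whole, partly kept and broken up, and 6.90, 10.3 and 82.8% of NPC NADs. The share lost was 2.70% of ESC NADs and 0% of NPC NADs. The limit of 0.95 Mb was added after seeing the data.

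Counts of genes depended on the filter and, in long NPC NADs, on chromosome 8. With a minimum of 0.3 RPKM, genes higher in NPCs numbered 3945 in all, 255 in long ESC NADs (158 inside and 120 outside NPC NADs), 223 in long NPC NADs and 106 in the parts of these outside ESC NADs. With no filter, higher and lower genes numbered 7200 and 4166 in all, 555 and 249 in long ESC NADs, 335 and 118 inside and 288 and 150 outside NPC NADs, 490 and 221 in long NPC NADs and 242 and 106 outside ESC NADs, as more genes were tested. Without chromosome 8, 65 genes were lower in long NPC NADs, and 27 were higher and 9 lower outside ESC NADs. Without chromosome 8 and ESC replicate 3, an alternative added after seeing the data, these were 88, 32 and 19.

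The balance of higher and lower genes turned under some alternatives. In long ESC NADs it went from 146 and 122 to 123 and 153 with quantile scaling and to 129 and 140 with centred samples, and inside NPC NADs from 88 and 59 to 75 and 78 with quantile scaling. Centring moves all genes alike, so the turn with centred samples is no result about long NADs. Outside NPC NADs, where it was even at 67 and 67, it was 55 and 85 with quantile scaling. In long NPC NADs it went from 129 and 140 to 223 and 188 with the 0.3 RPKM filter, 490 and 221 with no filter, 134 and 128 without ESC replicate 1, and 96 and 65 without chromosome 8. In the parts of these outside ESC NADs it went from 57 and 70 to 106 and 91 with the 0.3 RPKM filter, and turned as well with no filter and without chromosome 8. For all tested genes it went from 2380 and 2465 to 3945 and 3171 with the 0.3 RPKM filter, 7200 and 4166 with no filter, 2438 and 2305 without ESC replicate 1, and 2392 and 2234 without ESC replicate 2.

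When each sample was left out in turn, higher genes ranged from 1854 to 3074 and lower genes from 1956 to 3260 in all. The ranges were 104 to 186 and 87 to 173 in long ESC NADs, 62 to 113 and 35 to 86 inside NPC NADs, and 47 to 84 and 55 to 97 outside. They were 90 to 163 and 101 to 177 in long NPC NADs, and 39 to 72 and 51 to 93 outside ESC NADs. The upper ends came without ESC replicate 3.

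Samples with the same replicate number did not deviate together (correlations of 0.113, −0.0839 and 0.0310), and not every sample correlated best with its own number. With the replicate number as a block, higher and lower genes numbered 2238 and 2309 in all, 138 and 111 in long ESC NADs, 84 and 52 inside and 63 and 63 outside NPC NADs, 116 and 130 in long NPC NADs and 52 and 67 outside ESC NADs.

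The NAD lists hold calls common to 2 replicates, and fates were not compared between replicates. Borders are known to steps of 100 kb only.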

Other observations

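Gene families were counted by the start of the symbol. Of all genes on chromosomes 1 to 19, 8.66% were in long ESC NADs and 6.94% in long NPC NADs. Of 13 symbols starting with Cntn, which include contactins and contactin-associated proteins, 4 were in long ESC NADs and 4 in long NPC NADs. Neurexin genes (Nrxn) were in long ESC NADs for 2 of 2 and in long NPC NADs for 1, and neuroligin genes (Nlgn) for 0 of 2 in both. Of 4 Robo genes, receptors of axon guidance, 1 and 2 were in long ESC and NPC NADs, of 6 Unc5 genes 1 and 2, of 20 Sema genes 1 and 2, of 18 symbols starting with Eph 2 and 3, of 7 starting with Slit 0 and 1, and of 7 Efn genes 0 and 1. Slitrk genes were in neither (0 of 4), and Lrrtm genes in both for 1 of 4.

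Potassium channel genes (Kcn) numbered 7 of 92 in long ESC NADs and 5 in long NPC NADs, sodium channel genes (Scn) 1 of 18 in both, calcium channel genes (Cacn) 2 and 1 of 22, and glutamate receptor genes (Gri) 3 and 3 of 22. Cadherins (Cdh) numbered 3 of 28 in long ESC NADs and 7 in long NPC NADs, protocadherins (Pcdh) 3 and 1 of 65, symbols starting with Adam 3 and 10 of 58, and Serpin genes 0 and 2 of 60. Single long NPC NADs on chromosome 8 held 2 and 2 of the Cdh genes and 4, 3 and 1 of the Adam genes. Long NPC NADs covered 60.5% of that chromosome, and families were not counted without it. Of transcription factor genes, Sox genes numbered 0 and 1 of 18 and Fox genes 1 and 2 of 43.

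Among the 67 long ESC NADs with the highest scores, 62.5% of bases lay inside NPC NADs, and among the 67 with the lowest scores 55.9%. Among the 56 long NPC NADs with the highest scores, 48.9% of bases lay inside ESC NADs, and among the 56 with the lowest scores 64.0%, with chromosome 8 included.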
